A study of Mus musculus with 6 samples.

Results

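The peaks described here are those whose nearest annotated gene was a microRNA gene, that is, a gene name of Mir followed by a digit, or Mirlet. They numbered 2217 of the 134964 peaks in 6 peak lists and formed 984 of 60847 merged regions near 276 of 14930 named genes. The lists came from chromatin immunoprecipitation sequencing (ChIP-seq) of wild-type mouse bone marrow-derived macrophages (BMDMs) for C/EBPα, IRF8 and JUNB, which bind macrophage enhancers. Marrow cells of mice aged 8 to 12 weeks were grown for 6 days in L929 supernatant, a source of M-CSF, and then either received IL-4 (20 ng/ml, 1 h) or did not (control). All 6 samples were fixed with DSG and formaldehyde. There was 1 sample per factor and condition, so no difference below has a replicate check and none was tested. Intervals of shares are 95% Wilson intervals, which cover counting error only.

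MicroRNAs are cut from a hairpin in a longer primary transcript and repress mRNAs that pair with the seed, the short stretch near the 5′ end of the mature strand. Many hairpins lie in an intron of a host gene and share its transcript, and others have a transcript of their own whose start can be far from the hairpin. In macrophages, miR-155, miR-146a and miR-21 are known for their part in inflammation, miR-223 and miR-142 are typical of myeloid cells, and miR-511 is encoded in Mrc1, a gene of alternatively activated macrophages. The start to which the files measure distance is the 5′ end of the hairpin, not the promoter of the primary transcript. A peak was assigned to the nearest start and need not act on that gene.

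The mature sequences of the microRNA genes that the results turn on are shown first, so that genes encoding the same seed can be read together. They are from RefSeq (GRCm38.p6), run 5′ to 3′, and carry the seed (bases 2 to 8) in capitals. Mir21 and Mir101b had many gained peaks, and Mir193b and Mir511 had the 2 highest-scoring gained C/EBPα peaks near microRNA genes. Mir223 had lost peaks and no gain, and Mir142 had a strong IRF8 peak.
miR-21a-5p: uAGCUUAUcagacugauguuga
miR-511-3p: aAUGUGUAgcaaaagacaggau
miR-223-3p: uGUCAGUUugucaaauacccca
miR-142a-3p: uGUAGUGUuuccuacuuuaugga
miR-193b-3p: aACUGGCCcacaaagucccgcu
miR-101b-3p: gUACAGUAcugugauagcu

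Mature entries in RefSeq were used for 205 genes, and 25 seeds were encoded by more than 1 of them. The largest of these groups by peaks were the miR-181 genes, the pair Mir221 and Mir222, and the let-7 genes. Examples of their sequences are shown because the genes of a group encode the same seed.
miR-181a-5p: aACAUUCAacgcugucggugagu
miR-181c-5p: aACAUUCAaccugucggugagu
miR-221-3p: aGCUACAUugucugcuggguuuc
miR-222-3p: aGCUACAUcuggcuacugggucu
let-7c-5p: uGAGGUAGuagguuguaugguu
let-7i-5p: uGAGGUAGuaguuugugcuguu

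A peak is called gained when it was in the IL-4 list with no overlapping control peak, and lost when it was in the control list with no overlapping IL-4 peak. Over all genes and the 3 factors, 27.7% of IL-4 peaks were gained and 24.0% of control peaks were lost. The 5 genes with the miR-181 seed had 63 peaks, with 7 of 30 IL-4 peaks gained (23.3%, interval 11.8 to 40.9) and 10 of 33 control peaks lost (30.3%, 17.4 to 47.3). Mir221 and Mir222 had 57 peaks, with 6 of 29 gained (20.7%, 9.85 to 38.4) and 5 of 28 lost (17.9%, 7.88 to 35.6). The 7 genes whose mature entries used here carry the let-7 seed had 47 peaks, with 12 of 27 gained (44.4%, 27.6 to 62.7) and 5 of 20 lost (25%, 11.2 to 46.9). The shares over all genes lay inside the intervals of all 3 groups, at the lower edge for the let-7 gains. Mirlet7a-2 is not among the 7. Counted over all Mirlet7 genes and Mir98, 12 of 28 were gained (42.9%, 26.5 to 60.9) and 6 of 22 lost (27.3%, 13.2 to 48.2). The C/EBPα peaks of the 7 let-7 genes numbered 4 in control and 11 with IL-4, while their IRF8 peaks numbered 15 in both.

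Peaks near microRNA genes made up similar shares of all lists. The C/EBPα lists held 406 of 24486 peaks in control (1.66%, interval 1.51 to 1.83) and 410 of 24612 with IL-4 (1.67%, 1.51 to 1.83). The IRF8 lists held 602 of 37525 (1.60%, 1.48 to 1.74) and 679 of 42076 (1.61%, 1.50 to 1.74). The JUNB lists held 72 of 3940 (1.83%, 1.45 to 2.29) and 48 of 2325 (2.06%, 1.56 to 2.73). The intervals of control and IL-4 overlapped for every factor. The read number per sample was not given, so the longer IRF8 list and the shorter JUNB list with IL-4 cannot be told apart from depth.

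The annotation places a name where its table puts the hairpin, and this was checked against RefSeq. For 229 of the 276 names the RefSeq place gave the deposited distances within 2 bp. For 35 names the gene ID lay on another chromosome, for 7 it was not found, and for 5 the distance differed. These 47 names held 374 peaks (16.9%). Mir3110, with peaks on chromosomes 2 and 8, lies on chromosome X in RefSeq, and Mir378, with peaks on chromosome 9 inside Tcf12, lies on chromosome 18. Peaks of names on another chromosome do not lie near the RefSeq gene of that name.

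Marker genes were checked by the peaks nearest to them, since no RNA was measured. Of 8 macrophage genes, 7 had peaks, 138 in all, and Spi1 had none. Of 9 genes of other marrow cells, 6 had peaks, 77 in all, and Cd3e, Elane and Hbb-b1 had none. A peak near a gene does not show that it is transcribed, and the part of other cells in the results was not tested.

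Gains and losses near microRNA genes were close to those of the whole lists. For C/EBPα, 90 of 406 control peaks were lost (22.2%, interval 18.4 to 26.5), against 21.4% of all control peaks. Gains were 97 of 410 IL-4 peaks (23.7%, 19.8 to 28.0), against 22.0% of all. For IRF8, 126 of 602 were lost (20.9%, 17.9 to 24.4), against 21.4%, and 210 of 679 were gained (30.9%, 27.6 to 34.5), against 30.4%. For JUNB, 46 of 72 were lost (63.9%, 52.4 to 74.0), against 64.2%, and 22 of 48 were gained (45.8%, 32.6 to 59.7), against 39.2%. All 6 background shares lay inside the intervals of the microRNA genes. Kept to peaks with scores of at least 10, the JUNB lists had 24 control peaks, of which 8.33% were retained, and 7 IL-4 peaks, of which 71.4% were gained, so the JUNB shares moved far with the score minimum.

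**Figure D1:**
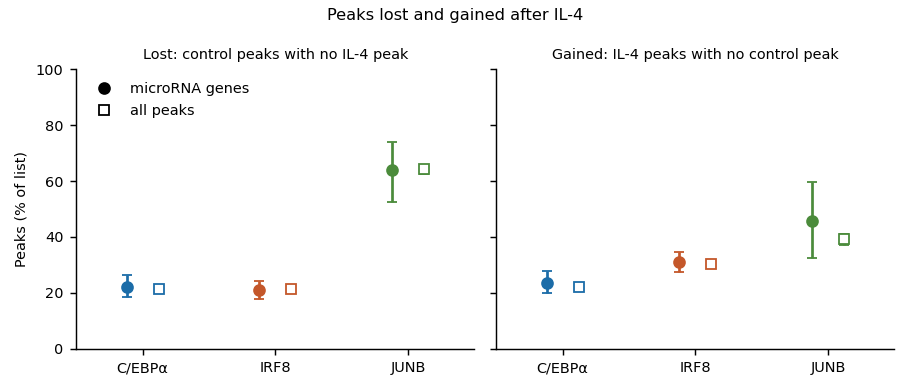
Share of control peaks lost (left panel) and of IL-4 peaks gained (right panel), in percent of the list, for peaks near microRNA genes (filled circles) and for all peaks (open squares). Bars are 95% Wilson intervals. The JUNB loss of 63.9% stands well above the C/EBPα (22.2%) and IRF8 (20.9%) losses, and each circle lies near the square of its factor.

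Gained and lost peaks had lower median scores than shared ones. The score, as deposited, has no stated unit and orders peaks by strength within a list. Gained peaks of C/EBPα, IRF8 and JUNB had median scores of 5.56, 4.99 and 5.53, while the IL-4 peaks shared with control had medians of 15.0, 14.7 and 5.92. Lost peaks had medians of 5.79, 5.62 and 6.79, against 15.8, 14.8 and 10.4 for control peaks that were shared. For JUNB with IL-4 the gained and shared medians lay close together. Over all genes the gained medians were 5.88, 4.99 and 5.03, against 14.8, 14.9 and 7.25 for shared IL-4 peaks. The lost medians were 5.62, 5.33 and 6.79, against 14.8, 13.7 and 10.8 for shared control peaks. The lower scores are thus not particular to microRNA genes. The highest gained scores near microRNA genes were 19.2, 31.3 and 16.2 in the same order, against 68.8, 101.0 and 23 over all genes.

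Scores of peaks present in both conditions stayed near each other for C/EBPα and IRF8. Over 311 C/EBPα pairs the median log2 ratio of IL-4 to control scores was -0.06 (quartiles -0.55 and 0.33), and over 469 IRF8 pairs it was 0.06 (-0.36 and 0.51). Over 26 JUNB pairs it was -0.97 (-1.22 and -0.42), and 4 of the 26 were higher with IL-4. The medians of all pairs were -0.00, 0.08 and -0.54. Scores at least 2-fold higher with IL-4 were found at 19 C/EBPα pairs (6.11%, against 7.72% of all pairs), 45 IRF8 pairs (9.59%, against 11.3%) and 1 JUNB pair (3.85%, against 2.99%). Scores at least 2-fold lower were found at 32 C/EBPα pairs (10.3%, against 6.56%), 35 IRF8 pairs (7.46%, against 7.96%) and 13 JUNB pairs (50%, against 29.9%). The JUNB shares rest on few pairs, and several pairs lie near the same name, with 5 at Mir3110 and 3 at Mir760, a name chosen after its values were seen.

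**Figure D2:**
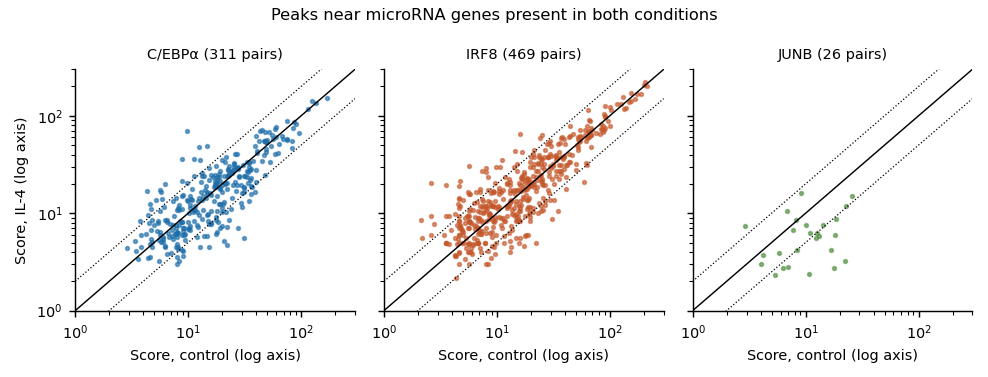
Deposited score of each peak near a microRNA gene that was present in both conditions, control on the x axis and IL-4 on the y axis, both on log axes without unit. The solid line marks equal scores and the dotted lines 2-fold differences. The 311 C/EBPα and 469 IRF8 pairs spread around the line, and most of the 26 JUNB pairs lie below it.

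Peaks near microRNA genes lay farther from the annotated start than peaks in general. Their median distance was 31204 bp in the C/EBPα control list (all peaks 20235 bp) and 29370 bp with IL-4 (19445 bp). For IRF8 it was 31896.5 bp (20951 bp) and 30158 bp (19977 bp). For JUNB it was 26595.5 bp (26144 bp) in control and 40713.5 bp (27046.5 bp) with IL-4. Peaks within 1000 bp of the start made up 1.97% to 3.39% of the C/EBPα and IRF8 lists near microRNA genes, against 9.14% to 12.9% of all peaks. JUNB had 2 such peaks in control and 0 of 48 with IL-4.

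**Figure D3:**
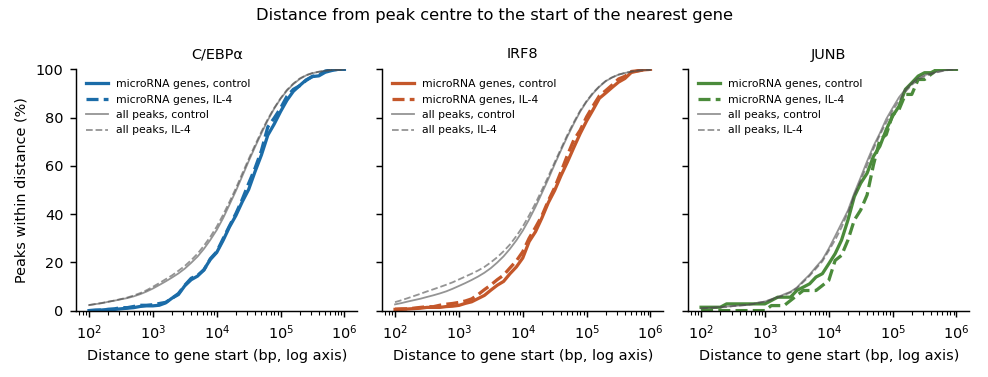
Cumulative share of peaks (percent) within a given absolute distance of the nearest annotated start (bp, log axis), one panel per factor. Coloured lines are peaks near microRNA genes and grey lines all peaks, solid for control and dashed for IL-4. At 10000 bp the C/EBPα and IRF8 curves of microRNA genes reach 21.8% to 24.4% and those of all peaks 33.1% to 34.8%.

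The share of promoter peaks differed in the same sense. Peaks annotated as promoter (around a transcription start) made up 0.985% of the microRNA-gene peaks of C/EBPα in control and 0.976% with IL-4, against 6.88% and 7.35% of all peaks. For IRF8 they made up 1.50% and 2.36%, against 7.25% and 9.16%. For JUNB they were 1 of 72 peaks in control (1.39%, against 2.79%) and 0 of 48 with IL-4, which allows a share of up to 7.41% by the Wilson interval (all peaks 2.80%). Introns held 36.1% to 50.5% and intergenic sequence 44.3% to 58.3% of the microRNA-gene peaks. Over all peaks these ranges were 43.3% to 46.2% and 42.0% to 50.6%. Peaks lay upstream of the hairpin in 1031 cases (46.5%). Counted over the same peaks, 794 lay in the body of a host gene on the same strand (35.8%), and a peak can be in both counts. Neither count was set against all peaks.

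Co-binding was close to that of all peaks. IRF8 overlapped 57.1% of the C/EBPα peaks near microRNA genes in control (all peaks 58.1%) and 61.7% with IL-4 (60.6%). JUNB peaks were overlapped by C/EBPα in 65.3% of cases in control (72.3%) and in 66.7% with IL-4 (73.4%), and by IRF8 in 79.2% (80.8%) and 81.2% (82.6%). The JUNB intervals, such as 53.8 to 75.2 for C/EBPα in control, held the values of all peaks. In 17 of the 984 regions all 6 lists had a peak (1.73%, against 993 of all 60847 regions, 1.63%).

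DNA motifs were searched in 200 bp around each peak centre on both strands. These were TTNNGNAA for C/EBP, GGAANNGAA for the ETS-IRF composite bound by PU.1 with IRF8, TGANTCA for AP-1 (JUNB dimers), and TTC followed after 3 or 4 bases by GAA for STAT6, the factor activated by IL-4. The letters of these motifs can overlap each other. The C/EBP motif was in 70.7% of the C/EBPα microRNA-gene peaks in control and 70.5% with IL-4 (all peaks 69.6% and 68.7%). The ETS-IRF motif was in 20.4% and 20.6% of the IRF8 peaks (21.2% and 20.0%), and the AP-1 motif in 56.9% and 45.8% of the JUNB peaks (55.3% and 50.3%). The motif of each factor was thus held by a share of its microRNA-gene peaks similar to the share in its whole list. This did not hold for every other motif. The ETS-IRF motif was in 8.13% of the C/EBPα microRNA-gene peaks in control (interval 5.85 to 11.2), against 11.6% of all. With IL-4 it was in 9.51% (7.04 to 12.7), against 11.6%.

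The STAT6 motif was more frequent in gained peaks than in shared ones for all 3 factors. It was in 25 of 97 gained C/EBPα peaks near microRNA genes (25.8%, interval 18.1 to 35.3), in 44 of 313 shared ones (14.1%, 10.6 to 18.3) and in 9 of 90 lost ones (10%, 5.35 to 17.9). For IRF8 it was in 46 of 210 gained (21.9%, 16.8 to 28.0), 58 of 469 shared (12.4%, 9.69 to 15.7) and 12 of 126 lost peaks (9.52%, 5.53 to 15.9). For JUNB it was in 5 of 22 gained (22.7%, 10.1 to 43.4), 2 of 26 shared and 4 of 46 lost peaks. Over all genes the gained peaks held it in 29.3% (C/EBPα), 19.3% (IRF8) and 27.0% (JUNB) of cases and the shared IL-4 peaks in 14.3%, 14.2% and 13.2%, the same order as near microRNA genes. The intervals of gained and shared peaks near microRNA genes did not overlap for IRF8 and overlapped for C/EBPα and JUNB. A match is a stretch of letters and does not show that STAT6 was bound.

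The number of peaks varied widely among genes. The median was 4 peaks per gene, 49 genes had 1 peak, and 19 genes had peaks in all 6 lists. Peaks were gained near 155 genes (56.2%, against 62.0% of all named genes) and lost near 141 (51.1%, against 51.5%). Both were found near 75 genes (27.2%, against 34.1%) and neither near 55 (19.9%, against 20.5%). All named genes had a median of 5 peaks, and the share of genes with a gain or loss depends on that number. The 12 genes with the most regions held 585 peaks (26.4%).

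Mir1907, on chromosome 15 in an intron of Trps1, a transcriptional repressor gene, had the most regions (40) and peaks (111). It also had the most lost peaks, 16 of 59 control peaks (27.1%, interval 17.4 to 39.6, against 24.0% over all genes). Gains were 10 of 52 IL-4 peaks (19.2%, 10.8 to 31.9, against 27.7%). Peaks of Mir1907 reached as far as 785520 bp from the hairpin. Of 80 peaks inside Trps1 in the 6 lists all 80 carried the name Mir1907. Mir5130, which RefSeq places inside Kctd12 on chromosome 14, followed with 30 regions, 82 peaks, 7 gained and 7 lost. The name Mir3110 had 28 regions and 92 peaks at its places on chromosomes 2 and 8, with 11 gained and 8 lost. Mir582, in Pde4d, a phosphodiesterase gene, had 26 regions with 8 gained and 5 lost peaks, and Mir1904 in the same host had 13 regions with 5 gained and 4 lost. Mir181a-1 (15 regions), Mir21 (14), Mir221 (14), Mir721 in Cux1 (13), Mir29b-1 (13), Mir701 in Ttc28 (12) and Mir3092 in Fndc3b (11) completed the 12.

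**Figure D4:**
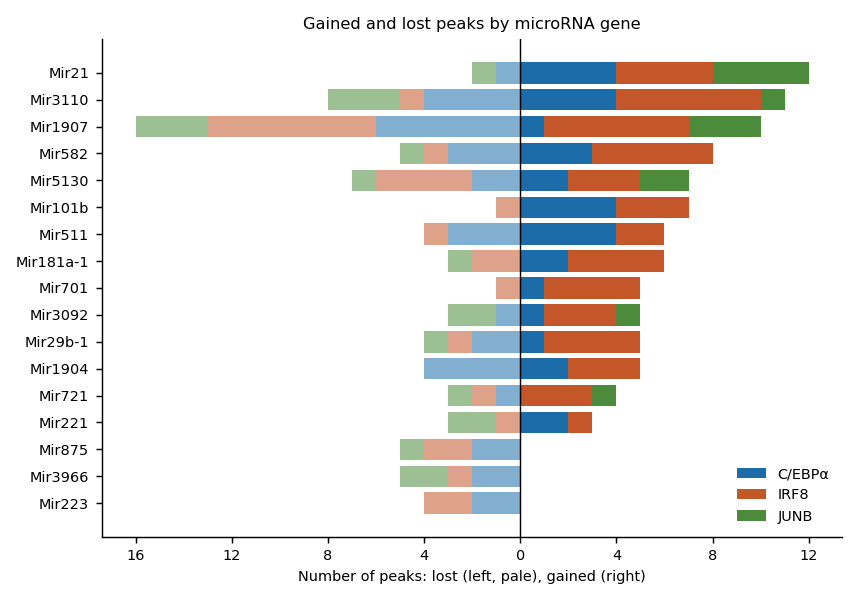
Number of peaks gained after IL-4 (right, full colour) and lost (left, pale) for 17 microRNA genes, coloured by factor: the genes with most regions, gains or losses, with Mir511 and Mir223 added. Mir21 has 12 gains and 2 losses, Mir1907 has 10 gains and 16 losses, and Mir875, Mir3966 and Mir223 have losses alone.

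Mir21 had the most gained peaks of any microRNA gene, 12, with 4 for each factor, and 2 lost peaks. The gained peaks were 12 of its 25 IL-4 peaks, a description of the gene that ranked first of 276 by this count. The hairpin (chr11:86584067-86584158, minus strand) lies within Vmp1, an autophagy gene, in RefSeq. Its upstream peaks lie in Vmp1 introns, and 25 of the 37 peaks inside Vmp1 carried the name Mir21. The strongest peak of C/EBPα near any microRNA gene lay 19777 bp upstream, in intron 9 of 11, with scores of 171 in control and 151 with IL-4. IRF8 scored 8.67 and 6.24 there, and JUNB had a peak of 6.10 in control and none with IL-4. The region 40353 bp upstream, in intron 7, had C/EBPα scores of 39.3 and 49.2 and IRF8 scores of 101 and 124. It held a JUNB peak of 15.3 with IL-4 and none in control. The other JUNB peaks, all with IL-4, scored 6.37 at 8989 bp upstream, 4.39 at 2626 bp downstream and 4.44 at 3194 bp downstream. JUNB thus had 1 peak in control and 4 with IL-4 near Mir21, while its list as a whole was shorter with IL-4. The IRF8 peak 2930 bp upstream scored 4.61 in control and 18.9 with IL-4, and C/EBPα had a peak of 9.58 there in control alone. The IRF8 region 2626 bp downstream scored 28.9 and 52.0.

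Mir511 (chr2:14261003-14261081, plus strand) lies in Mrc1, the mannose receptor gene. It had 9 regions and 20 peaks, none of JUNB. Of 11 IL-4 peaks 6 were gained (54.5%, interval 28.0 to 78.7, against 27.7% over all genes). Of 9 control peaks 4 were lost (44.4%, 18.9 to 73.3, against 24.0%). All 9 regions lay in Mrc1 introns. In the region 15026 bp downstream, in intron 9 of 29, C/EBPα scored 17.96 and IRF8 10.4 with IL-4, and neither had a peak in control. C/EBPα also had gained peaks of 2.72, 4.72 and 9.56 farther downstream, the last with an IRF8 peak of 6.14. In the region 10920 bp upstream the C/EBPα score was 31.5 in control and 5.52 with IL-4, a ratio of 0.175, while IRF8 scored 101 and 78.0. The region 1328 bp downstream scored 55.6 and 63.5 for C/EBPα, and 29.7 and 13.5 for IRF8. Within this 1 host gene peaks differed in both directions between the conditions.

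**Figure D5:**
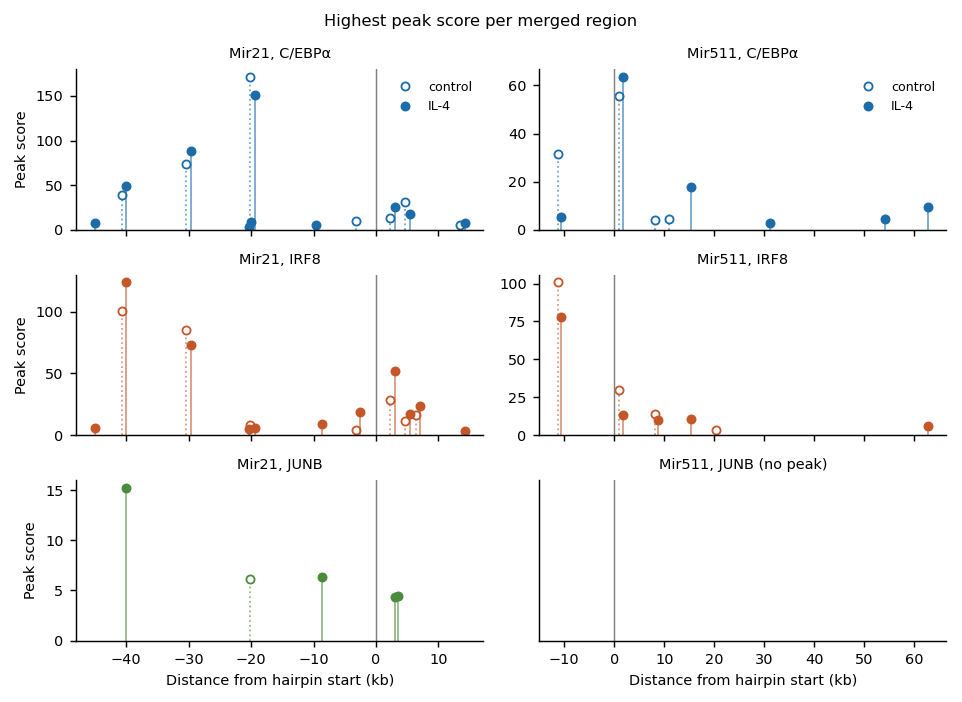
Highest deposited score per merged region against distance from the hairpin start (kb, negative upstream) for Mir21 (left) and Mir511 (right), one row per factor. Open circles with dotted stems are control and filled circles IL-4, set slightly apart so that both can be seen. Near Mir21 the JUNB peak of 15.3 and 3 weaker ones appear with IL-4 alone, and near Mir511 the C/EBPα peak of 17.96 does.

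The largest ratio of scores for C/EBPα near a microRNA gene was in Trps1 intron 2 of 5, 55077 bp downstream of the start of Mir1907. The C/EBPα score was 9.73 in control and 69.5 with IL-4, a ratio of 7.14. With IL-4 alone IRF8 had a peak of 31.3, its strongest gained peak near a microRNA gene, and JUNB a peak of 4.22. The 2 strongest regions near Mir1907, both in intron 4, had C/EBPα scores of 86.6 and 85.7 with IRF8 scores of 154 and 172, and C/EBPα scores of 134 and 136 with IRF8 scores of 17.4 and 22.1. In the region at 22016 bp C/EBPα scored 48.3 and 54.6, IRF8 58.8 and 21.0, and JUNB 3.93 in control alone. Near Mir491, in Focad, the region 64200 bp downstream had C/EBPα scores of 12.6 and 48.0 and IRF8 scores of 2.59 and 20.5. Near Mir3092, in Fndc3b, C/EBPα scored 14.8 and 48.9 in the region 32156 bp upstream. Mir491 was named after its values were seen. Near Mir582, in Pde4d, C/EBPα scored 8.89 and 35.6 in the region 62744 bp upstream, where IRF8 scored 26.3 and 38.2. Near Mir721, in Cux1, C/EBPα scored 4.34 and 16.9 at 10857 bp upstream but 21.9 and 4.66 at 19889 bp downstream. These regions are examples, mostly of higher scores with IL-4. Of the 311 C/EBPα pairs near microRNA genes, 19 were at least 2-fold higher with IL-4 and 32 at least 2-fold lower.

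Sequence was read for 8 peaks, the strongest gained and the strongest lost one of each factor and the strongest gained one of Mir21 and of Mir511. The 5 shown are those of genes described in detail here. Each is 200 bases of the plus strand around the peak centre, read from RefSeq GRCm38.p6 (the mm10 assembly), with matches to the 4 motifs in capitals. The windows are chr16:13419873-13420072 (C/EBPα gained, Mir193b), chr15:50833869-50834068 (IRF8 gained, Mir1907), chr11:86624374-86624573 (JUNB gained, Mir21), chr2:14275930-14276129 (C/EBPα gained, Mir511) and chr3:27584679-27584878 (JUNB lost, Mir3092).
Mir193b peak: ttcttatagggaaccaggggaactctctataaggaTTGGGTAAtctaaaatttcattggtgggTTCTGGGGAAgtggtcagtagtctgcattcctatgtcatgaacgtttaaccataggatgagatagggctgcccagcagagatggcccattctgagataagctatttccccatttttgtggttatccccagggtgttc
Mir1907 peak: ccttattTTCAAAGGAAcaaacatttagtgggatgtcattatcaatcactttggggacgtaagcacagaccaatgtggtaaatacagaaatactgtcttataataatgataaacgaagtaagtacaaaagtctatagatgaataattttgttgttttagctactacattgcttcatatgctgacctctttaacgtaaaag
Mir21 peak: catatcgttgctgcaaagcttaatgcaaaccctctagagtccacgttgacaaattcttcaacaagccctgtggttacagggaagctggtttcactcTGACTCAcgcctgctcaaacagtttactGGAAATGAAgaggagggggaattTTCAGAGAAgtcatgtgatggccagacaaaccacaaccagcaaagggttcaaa
Mir511 peak: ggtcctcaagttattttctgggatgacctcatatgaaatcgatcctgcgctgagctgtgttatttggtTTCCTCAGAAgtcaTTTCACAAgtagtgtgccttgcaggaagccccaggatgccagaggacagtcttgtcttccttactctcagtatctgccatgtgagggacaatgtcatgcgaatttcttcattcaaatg
Mir3092 peak: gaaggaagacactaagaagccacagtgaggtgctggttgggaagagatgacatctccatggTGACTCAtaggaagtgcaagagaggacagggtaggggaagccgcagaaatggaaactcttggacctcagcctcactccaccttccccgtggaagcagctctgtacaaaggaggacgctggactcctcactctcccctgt

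The 4 gained peaks shown each held 1 match to the STAT6 motif, while the gained JUNB peak near Mir3473, not shown, held no match to any of the 4 motifs. The Mir193b and Mir511 windows also held a C/EBP match, and the Mir21 window an AP-1 match (TGACTCA) and an ETS-IRF match (GGAAATGAA). The gained IRF8 peak of Mir1907 held no ETS-IRF match. The lost Mir3092 peak held an AP-1 match and no STAT6 match, and the lost peaks not shown, C/EBPα near Mir669c and IRF8 near Mir5130, each held a C/EBP match alone. These few windows were chosen by strength or by gene and stand for themselves. Over all genes the STAT6 motif was in 29.3% of gained C/EBPα peaks, 19.3% of gained IRF8 peaks and 27.0% of gained JUNB peaks. In the IL-4 lists, gained and shared peaks together, it was in 17.6%, 15.7% and 18.6% in the same order.

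Mir193b, on chromosome 16, had 4 gained peaks and no lost one. Its gained C/EBPα peak of 19.2, the strongest gained peak of that factor near a microRNA gene, lay 29551 bp upstream with an IRF8 peak of 5.19, also with IL-4 alone. IRF8 had further gained peaks of 5.37 and 4.99 and a shared peak with scores of 65.4 and 68.5. Mir101b, in Rcl1 on chromosome 19, had 7 gained peaks and 1 lost. Its IRF8 peak 7348 bp downstream scored 5.71 in control and 30.7 with IL-4, and C/EBPα had a peak of 5.23 there with IL-4 alone. The strongest Mir101b region, 45202 bp downstream, scored 27.7 and 29.3 for C/EBPα and 37.0 and 59.0 for IRF8.

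Mir223, a myeloid microRNA gene of chromosome X, had 4 lost peaks and no gain. C/EBPα, a known activator of Mir223 transcription in granulocytes, had peaks of 5.41 and 14.8 in control and none with IL-4. IRF8 had control peaks of 4.84 at the hairpin, 5.71 and 10.9, and the last, 13900 bp downstream in an intron of Vsig4, remained with a score of 7.55. The lost peaks were 4 of 5 control peaks, so the count rests on few and mostly weak peaks. Mir875, with all of its regions upstream in Vps13b introns, had 5 lost peaks and no gain. Its C/EBPα scores were 22.9 and 8.55 at 37651 bp and 17.7 and 8.46 at 44717 bp, but 16.4 and 23.7 at 20856 bp. Mir3966 also had 5 lost peaks and no gain, among them JUNB peaks of 5.73 and 7.36 beside IRF8 peaks of 18.8 and 37.2 that remained at 13.5 and 38.0. Mir181c had 5 lost peaks and no gain as well, with a JUNB peak of 12.0 the highest. Losses without a gain were found near 66 of the 276 microRNA genes. A lost peak was found near 51.1% of the microRNA genes, and both a gain and a loss near 27.2%. Of 14930 named genes, 7696 had a lost peak (51.5%) and 5088 had both a gain and a loss (34.1%). Over all genes and the 3 factors, 24.0% of control peaks were lost. Mir875 and Mir3966 were named for their number of losses.

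The strongest IRF8 peaks near microRNA genes differed little between the conditions. They scored 212 and 202 near Mir1963, inside Ryr1, 204 and 222 near Mir1929, and 203 and 207 near Mir3076. IRF8 scored 191 and 169 at the chromosome 2 place of Mir3110. C/EBPα scored 125 and 142 near Mir5104. Near Mir142, whose product is abundant in blood cells, IRF8 scored 88.5 and 104 at 7163 bp upstream, and C/EBPα scored 15.2 and 28.9 at 1831 bp downstream. The strongest JUNB peaks in control were near Mir3110 (25.9), Mir669a-1 (22.7), Mir122a (22.3), Mir3092 (21.7) and Mir1931 (21.4). With IL-4 the peaks at the same Mir3110, Mir669a-1 and Mir122a regions scored 15.1, 12.0 and 3.22, the Mir3092 and Mir1931 peaks were lost, and the highest were those near Mir466 (16.3), Mir3473 (16.2) and Mir21 (15.3). The Mir466 peak lies on a simple repeat, and Mir466, Mir3473, Mir669a-1 and Mir3110 are names whose place differs from RefSeq.

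Few peaks lay at a hairpin itself. Of 35 regions within 1000 bp of a start, the strongest were IRF8 peaks at Mir1839 (760 bp upstream, scores 37.8 and 61.2), Mir1932 (33 bp upstream, 54.8 and 54.8) and Mir1896 (948 bp downstream, 34.7 and 51.1). C/EBPα scored 21.5 and 37.4 at Mir1894 (443 bp downstream) and 35.8 and 19.0 at Mir5103 (196 bp upstream). At Mir3092 (281 bp downstream) C/EBPα scored 28.1 and 23.7, IRF8 8.42 and 13.3, and JUNB 21.7 in control alone. At Mir15b (259 bp upstream) IRF8 scored 12.2 and 20.4 and C/EBPα had a peak of 10.9 with IL-4 alone. Weak IRF8 peaks were found with IL-4 alone at, among others, Mir9-2 (8.26), Mir23a (8.32), Mir142 (4.98) and Mir132 (4.85). In control alone they were found at Mir3095 (5.73), Mir223 (4.84), Mir3962 (2.59) and Mir5122 (2.32). The regions include those of Mir3473, Mir1191 and Mir3962, names whose RefSeq gene lies on another chromosome.

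The inflammatory response list of 19 microRNA genes had peaks near 13. Of 77 IL-4 peaks, 30 were gained (39.0%, interval 28.8 to 50.1), and of 60 control peaks, 12 were lost (20%, 11.8 to 31.8), against 27.7% gained and 24.0% lost over all peaks of the 3 factors. Mir21 gave 12 of the gains, and without it 18 of 52 IL-4 peaks were gained (34.6%, 23.2 to 48.2), an interval that holds the background. This list was chosen with earlier results of these data known and is a description. Mir155, which is induced in inflammatory macrophages, had 1 peak in all 6 lists, an IRF8 peak of 4.99 with IL-4, 15235 bp upstream. Mir146 had an IRF8 peak 5860 bp downstream that scored 7.34 in control and 27.1 with IL-4, and a C/EBPα peak of 34.0 and 20.6 at 21215 bp. Mir221 and Mir222, a cluster of chromosome X, had strong IRF8 peaks with scores of 82.3 and 65.4 for Mir221 and 91.2 and 126 for Mir222. Their JUNB peaks in control scored 9.02, 6.79, 8.44 and 16.7, and with IL-4 the first pair was absent and the second pair scored 4.22 each.

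The myeloid lineage list of 24 genes had peaks near 10, with 21 of 56 IL-4 peaks gained (37.5%, interval 26.0 to 50.6) and 16 of 51 control peaks lost (31.4%, 20.3 to 45.0). Of its 21 gains 16 were of IRF8 and 0 of JUNB. The list had 0 JUNB peaks with IL-4, so no JUNB gain could be counted. Over all genes, IRF8 gave 12804 and JUNB 912 of the 19120 gained peaks. Mir181a-1, a regulator of lymphoid and myeloid development, had 6 gains and 3 losses, and its strongest region, 214745 bp upstream, scored 58.8 and 72.9 for C/EBPα and 24.1 and 59.6 for IRF8. Mir29b-1 had 5 gains and 4 losses, and in its region 52006 bp upstream C/EBPα scored 17.5 and 30.4 and IRF8 28.4 and 37.4. The alternative activation and lipid list of 16 genes had peaks near 10, with 15 of 44 IL-4 peaks gained (34.1%, 21.9 to 48.9) and 10 of 39 control peaks lost (25.6%, 14.6 to 41.1). Beside Mir511 and Mir193b it held Mir33, in Srebf2, the gene of a cholesterol regulator, whose IRF8 peak scored 19.5 and 19.4 and whose C/EBPα (5.75) and JUNB (5.73) peaks were lost. Mir34a, a p53 target, had C/EBPα scores of 48.1 and 54.9 at 7881 bp downstream and 3 gained IRF8 peaks. The background shares lay inside the intervals of both lists. The alternative activation and lipid counts include Mir378, whose peaks lie inside Tcf12, on another chromosome than its RefSeq gene. In control and with IL-4, Mir378 had 2 and 3 C/EBPα peaks, 7 and 6 IRF8 peaks, and 2 and 2 JUNB peaks. Of these, 1 was gained and 1 lost. Shares of this list without Mir378 were not computed.

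Among 15 genes of microRNA processing, which are no microRNA genes themselves, 11 had peaks, 115 in all, with 22 of 64 IL-4 peaks gained (34.4%, interval 23.9 to 46.6) and 9 of 51 control peaks lost (17.6%, 9.57 to 30.3). Both intervals hold the shares over all genes (27.7% and 24.0%). Zc3h12a, an RNase that cuts hairpin precursors and inflammatory mRNAs, had 9 of the gains and 5 of the losses. Dicer1, which cuts hairpins into mature duplexes, had 1 gained IRF8 peak and a highest score of 50.2, and Drosha and Dgcr8, which release the hairpin, had 2 gained IRF8 peaks each, with highest scores of 4.99 and 2.95. Eif2c3, the Argonaute gene also called Ago3, had 3 gained peaks and no lost one.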

How the data were processed

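ChIP-seq peaks of 6 samples were analysed, 1 per factor (C/EBPα, IRF8, JUNB) and condition (control, IL-4). Per the submitters' processing notes the authors used BWA 0.7.10, SAMtools 0.1.19, MACS2 2.0.10 and HOMER 4.2 on mm10. Libraries were made with either of 2 kits, not assigned to samples in the sources used here. No unit is stated for the deposited score of a peak (1.30 to 322.6 over all lists), and read depth is not given. The deposited distance, class and nearest gene were used as the authors gave them. Peaks of 2 lists with 1 bp or more in common counted as shared, scores were compared in one-to-one pairs (largest overlap first), and peaks of all lists that touched were merged into regions. Deposited coordinates are printed as written. Names were matched to RefSeq by gene ID. The genes named were those of the lists, the 12 with most regions, the 6 with most gains and the 6 with most losses, the 5 highest and the 3 highest gained and lost peaks per factor, and up to 20 peaks within 1000 bp of a start. Names outside this rule are said to be chosen after their values were seen, or stand as examples of sequences read. Members and lists were chosen with earlier results of these data known. Nothing was tested, since each group had 1 sample. Overlap, pairing and motif search were checked on simulated data. Python 3.11.15 with pandas 2.3.3, scipy 1.17.1 and pysam 0.24.0 was used. Alternatives were another overlap, a score minimum of 10, lists cut to equal length, peaks within 100000 bp, names without host transcripts, a 100 bp motif window, and, chosen after seeing the data, names placed as in RefSeq.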

Additional observations from a re-analysis of the deposited data

Results flagged for a closer look

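The number of microRNA-gene peaks moved in opposite ways in IRF8 and JUNB, with an IL-4 to control ratio of 1.13 for IRF8 (679 and 602 peaks) and 0.667 for JUNB (48 and 72 peaks). The median log2 score ratio at shared microRNA-gene peaks was 0.06 for IRF8 and -0.97 for JUNB. The 95% intervals of these medians over pairs were -0.02 to 0.14 and -1.22 to -0.44. The medians of all pairs, 0.08 and -0.54, lay inside them. The pairs of a factor come from 1 control and 1 IL-4 sample, so these intervals do not cover differences between samples. The difference between the factors was not tested, since each group had 1 sample, and the whole lists had more IRF8 peaks and fewer JUNB peaks with IL-4 as well.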

How the results depend on the processing

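Of 108 values recomputed under an alternative, 75 stayed within the 95% interval of the value reported. All values with an overlap of at least 50% of the shorter peak, or without names ending in hg, did so. No paired analysis was possible because each group had 1 sample. With a score of at least 10, the gained share of C/EBPα was 15.8%, that of IRF8 22.0% and that of JUNB 71.4%, and the retained share of IRF8 was 83.9% and that of JUNB 8.33%. With lists of a factor cut to equal length, gained shares were 25.0% for IRF8 and 60.4% for JUNB. Within 100000 bp, the shares of the list, which then count fewer peaks, were 1.37% and 1.40% (C/EBPα) and 1.26% and 1.30% (IRF8) in control and with IL-4. With names placed as in RefSeq a choice made after seeing the data, they were 1.42% and 1.42% (C/EBPα), 1.32% and 1.34% (IRF8), and 1.37% and 1.46% (JUNB), while all gains, losses and score changes stayed within their intervals. With the 3 lists of a condition cut to the shortest, C/EBPα peaks overlapped by IRF8 were 17.5% and 9.38%, JUNB peaks overlapped by C/EBPα 19.4% and 18.8%, and JUNB peaks overlapped by IRF8 9.72% and 6.25%. In 100 bp windows, which hold fewer matches by construction, the C/EBP motif was in 55.2% and 52.0% of C/EBPα peaks and the ETS-IRF motif in 14.6% and 15.5% of IRF8 peaks. The STAT6 motif was then in 5.91% and 9.27% of C/EBPα, 5.32% and 8.54% of IRF8 and 4.17% and 6.25% of JUNB peaks. Other causes were not tested. Depth, unknown here, limits the comparison of list lengths and of weak peaks, above all for JUNB.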
